A study of Mus musculus with 12 samples.

Results

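The messages described here encode parts of the nuclear pore and the proteins that carry cargo through it. They were measured by RNA sequencing in mouse embryonic fibroblasts, connective tissue cells cultured from mouse embryos. The set was given as a list of 35 gene symbols, of which 27 are nucleoporins (proteins of the pore) and 8 are transport genes (import and export receptors and the GTPase Ran). All 35 were matched among the 49315 genes of the count tables by GENCODE M21 symbol, and all had counts in each library and passed the filter on low counts. The list did not come from measured values of one contrast, but it was proposed with results of these data known.

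The labels name no genetic change in the cells, which were exposed for 24 h to 1 of 4 conditions, with 3 libraries each. Controls received the solvent DMSO. Rapamycin, which forms a complex with the protein FKBP12 that binds mTOR, was given at 20 ng/ml. Torin1, an ATP-competitive inhibitor of the mTOR kinase, was given at 250 nM. RapaLink-1, a rapamycin joined to an ATP-site inhibitor through a linker, was given at 10 nM. The doses differ, so a comparison between compounds is a comparison of these doses, and the 3 comparisons with DMSO share the same DMSO libraries. The labels give neither the strain nor the passage of the cells, nor whether the libraries of a group are separate cultures. The p-values therefore rest on the spread among these samples alone, and that spread may be technical.

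The nuclear pore is a channel through the nuclear envelope built from many copies of each nucleoporin. Outer and inner rings form its scaffold, nucleoporins rich in phenylalanine-glycine repeats fill the channel, and filaments extend into the cytoplasm and as a basket into the nucleus. Importins carry proteins into the nucleus and exportins carry cargo out, and Ran, loaded with GTP inside the nucleus, sets the direction by releasing import cargo and holding export cargo. Scaffold nucleoporins are long-lived proteins, and pores are also added as dividing cells enlarge and rebuild their nuclei.

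Total counts were 30075870 to 39423703 per library. The fitted biological coefficient of variation was 1.48%. Of the fixed marker lists, the 10 fibroblast markers summed to 18780 to 21770 CPM, which are counts scaled to the library total, while all 5 epithelial markers stayed under 1 CPM in each library and 3 of 4 skeletal muscle markers were at 0. Over all libraries, endothelial markers summed to 0.762 to 2.93 CPM, macrophage and leukocyte markers to 2.19 to 4.15 CPM and pluripotency markers to 0.614 to 1.34 CPM. Neural markers summed to 16.0 to 19.8 CPM in DMSO libraries, at most 14.7 in rapamycin libraries, 8.14 to 9.95 in Torin1 libraries and 8.41 to 9.34 in RapaLink-1 libraries. Some marker lists thus moved with the groups. The endothelial sum was 0.762 to 1.56 CPM with DMSO and 2.32 to 2.93 with Torin1 or RapaLink-1, and the macrophage and leukocyte sum 2.82 to 3.34 and 3.59 to 4.15. With Torin1 5 of the 10 fibroblast markers were called higher and 4 lower, beside 39.8% and 38.3% of all tested genes. Their sum with Torin1, 21000 to 21680 CPM, overlapped that with DMSO, 21370 to 21770. The 11 proliferation markers moved with the groups and are given beside the results. The part of these lists in the results was not tested.

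The 35 genes together took 0.816% to 0.825% of a DMSO library's counts. Their share was 0.660% to 0.668% in rapamycin libraries, 0.487% to 0.489% in Torin1 libraries and 0.518% to 0.520% in RapaLink-1 libraries. No library of a compound reached the DMSO range, and Torin1 had the lowest share. In these bulk samples, fewer cells with a message and less of it per cell cannot be told apart. The same libraries differed in the summed level of the 11 proliferation markers, which was 3327 to 3349 CPM under DMSO and 2703 to 2714 under rapamycin, then 1283 to 1304 under Torin1 and 1507 to 1522 under RapaLink-1. The part of this difference in the results below was not tested.

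**Figure D1:**
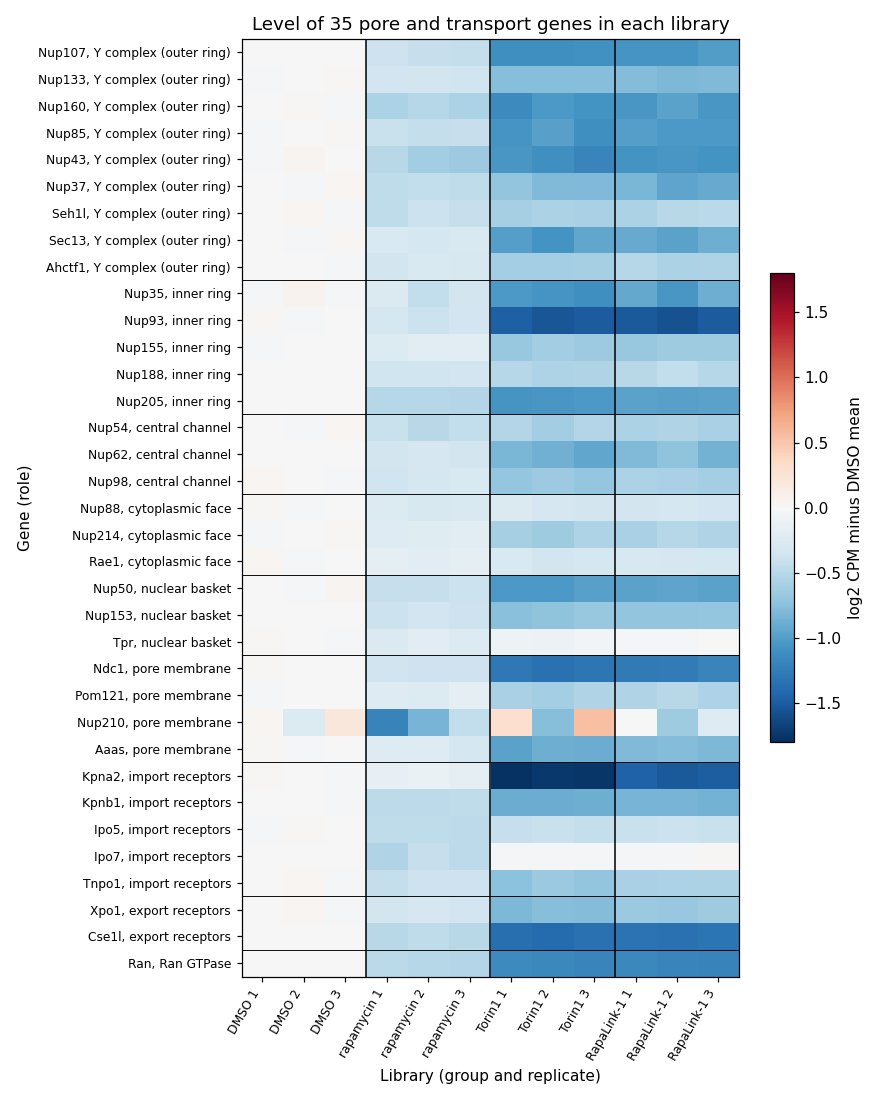
Level of each of the 35 genes (rows, ordered by role) in each of the 12 libraries (columns), as log2 CPM minus the mean of the DMSO libraries, with blue for lower and red for higher. Most rows are pale blue in the rapamycin columns and darker in the Torin1 and RapaLink-1 columns, while Ipo7 and Tpr are blue with rapamycin and close to white with the other compounds.

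With rapamycin, 34 of the 35 genes fell against DMSO and none rose. A gene was called changed at an adjusted p under 0.05 in the quasi-likelihood test of edgeR, adjusted by Benjamini-Hochberg over all 15917 tested genes, of which 32.2% were called lower in this comparison. With Torin1 33 fell, where 38.3% of all tested genes were called lower. With RapaLink-1 32 fell, against 37.9% of all tested genes. None of the 35 was called higher against DMSO with any compound, while 27.5%, 39.8% and 38.7% of all tested genes were, in the same order. With upper-quartile scaling, however, Ipo7 and Tpr were called higher with both Torin1 and RapaLink-1. When genes with a mean under 5 CPM were left out, Ipo7 was called higher with both compounds and Tpr with RapaLink-1 only. The falls were modest with rapamycin and larger with the other compounds. The median log2 fold change of the nucleoporins was -0.35 with rapamycin, -0.77 with Torin1 and -0.79 with RapaLink-1. That of the transport genes was -0.46, -0.84 and -0.75, and the medians over all tested genes were 0.00, 0.04 and 0.03.

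Set directly against rapamycin, 30 of the genes were lower with Torin1 and 4 were higher (Tpr, Nup210, Ipo5 and Ipo7), beside 33.2% and 34.2% of all tested genes. With RapaLink-1 31 were lower and 3 higher (Tpr, Ipo5 and Ipo7) than with rapamycin, beside 33.0% and 32.0%. The same 30 genes were lower in all 3 comparisons with DMSO and in both of these. The share of all tested genes with this joint pattern was not computed, and these comparisons share libraries. With upper-quartile scaling the falls from rapamycin were no longer called for Nup54 with either compound (-0.05 each) nor for Seh1l (-0.02) and Rae1 (-0.05) with RapaLink-1, and Nup88 with RapaLink-1 changed sign (0.02, not called). RapaLink-1 and Torin1 differed less. With RapaLink-1 15 genes were higher and 1 was lower, beside 16.7% and 16.4% of all tested genes, and the other 19 were not called. The calls of Aaas, Ahctf1, Ndc1, Nup160, Nup188, Nup35, Sec13 and Seh1l in this comparison were each lost when some 1 library was left out, with values from 0.04 to 0.13. Among the 4 groups as a whole 34 of the 35 differed, as did 85.3% of all tested genes, and the exception was Nup210.

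The libraries of most genes did not overlap in the comparisons with DMSO and with rapamycin. For 35 of the 35 genes no rapamycin library reached the DMSO range, as for 63.0% of all tested genes. The number was 34 for Torin1 against DMSO (78.5% of all tested genes), 32 for RapaLink-1 against DMSO (77.6%), 33 for Torin1 against rapamycin (69.2%) and 34 for RapaLink-1 against rapamycin (67.4%). Between RapaLink-1 and Torin1 the libraries of only 17 of the 35 genes did not overlap (42.2%).

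**Figure D2:**
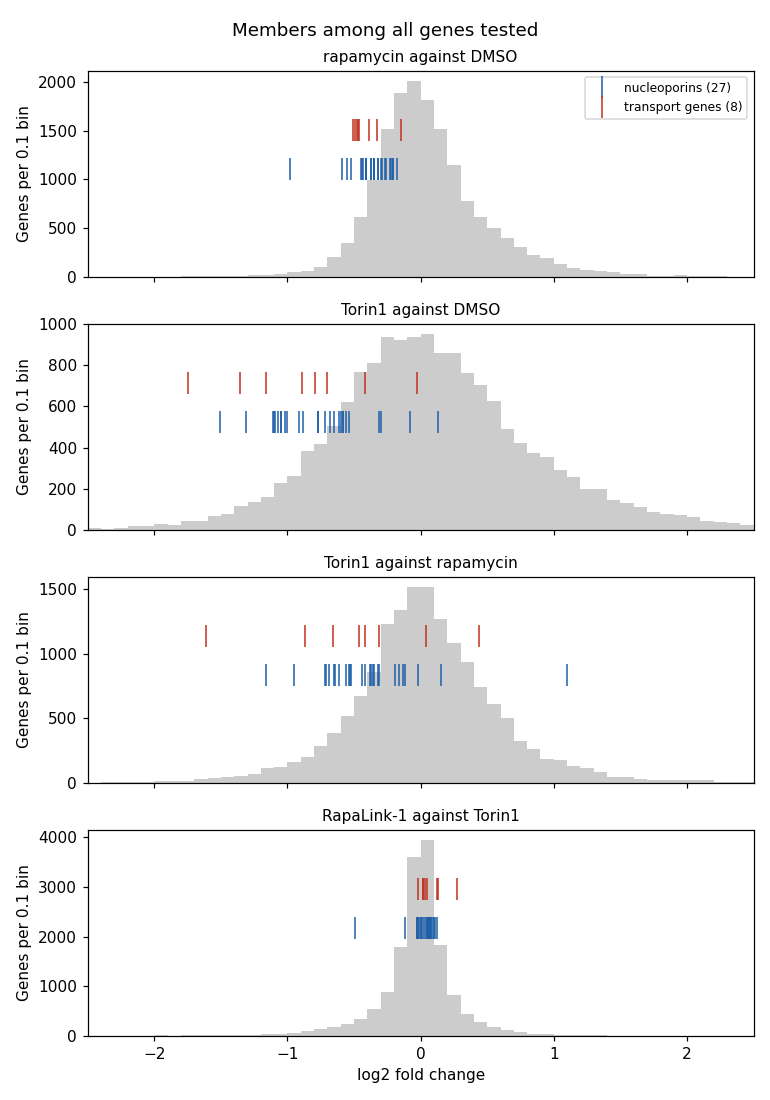
Distribution of the log2 fold change of all 15917 tested genes in bins of 0.1 (bars, number of genes), with the nucleoporins and transport genes marked. From top to bottom, the panels are rapamycin against DMSO, Torin1 against DMSO, Torin1 against rapamycin and RapaLink-1 against Torin1. The axis is limited to changes between -2.5 and 2.5. The marks of both classes lie mostly to the left of the centre of the bars, except in the bottom panel, where most lie close to the centre.

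In the control cells, most transport messages were more abundant than the pore messages when counts were divided by exonic length. Ran stood highest at 336.5 CPM per kb, followed by Kpnb1 at 182 and Ipo5 at 162, while Nup107 was the highest nucleoporin at 50.1. The median was 95.7 CPM per kb over the 8 transport genes and 27.6 over the 27 nucleoporins. The exceptions were Tnpo1 at 46.3, below Nup107, and Ipo7 at 23.4, below the nucleoporin median. Between neighbours in the order the levels often lay within a library's spread, as for Nup205 (36.7 ± 0.24, SD, n = 3) and Nup188 (36.6 ± 0.18). The lowest of the 35 was Nup210 at 0.0318 CPM per kb, followed by Nup98 at 11.5.

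With Torin1 the largest fall was that of Kpna2, which encodes importin alpha 1, the adaptor that binds classical nuclear localization signals. The gene lies on chromosome 11 at 106988629 to 106999541 of GRCm38, on the minus strand. Its level was 377, 371 and 368 CPM in the 3 DMSO libraries, 335, 342 and 331 with rapamycin, 109, 112 and 111 with Torin1, and 136, 131 and 133 with RapaLink-1. The 4 groups did not overlap, and rapamycin stayed close to DMSO while the other compounds were far lower. It fell by 9.7% with rapamycin (log2 fold change -0.15 ± 0.02, SE, edgeR adjusted p = 1.56e-13), fell by 70.3% with Torin1 (-1.75 ± 0.02, adjusted p = 2.29e-135) and fell by 64.2% with RapaLink-1 (-1.48 ± 0.02, adjusted p = 8.04e-126). Kpna2 thus had the smallest fall of the 34 called with rapamycin and the largest of the 33 called with Torin1, while with RapaLink-1 Nup93 fell more (-1.53). It also had the largest difference between Torin1 and RapaLink-1 among the called genes, 0.27 ± 0.02 higher with RapaLink-1 (adjusted p = 1.18e-22). Kpna2 shares 62.6% of its 50-base stretches with other genes, mostly with the processed copy Gm10184, which was listed at 4.02 CPM with DMSO and 1.02 with Torin1, so reads of the copy could be split between them.

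Cse1l, the exportin that returns importin alpha to the cytoplasm, also fell strongly. It stood at 308, 312 and 311 CPM with DMSO, 219, 226 and 220.2 with rapamycin, 122, 119 and 122 with Torin1, and 124, 123 and 125 with RapaLink-1. Every treated library lay below every DMSO library. The log2 fold changes were -0.49, -1.36 and -1.33 (each ± 0.02) for rapamycin, Torin1 and RapaLink-1. Kpnb1, importin beta 1, which pairs with importin alpha and takes the complex through the pore, was the most abundant receptor per length. It spanned 1187 to 1212 CPM with DMSO. The rapamycin libraries held 866 to 874 CPM, the Torin1 libraries 646 to 655 and the RapaLink-1 libraries 668 to 673. These are changes of -0.47, -0.89 and -0.84 (each ± 0.01), without overlap between any pair of groups.

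Ran, the GTPase that directs this traffic, fell with all 3 compounds. Its level was 890.0, 889.7 and 892 CPM with DMSO, 637, 625 and 619 with rapamycin, 403, 399 and 392 with Torin1, and 398, 392 and 385 with RapaLink-1. Torin1 and RapaLink-1 overlapped and lay below all rapamycin libraries. Ran fell by 29.6% with rapamycin, fell by 55.3% with Torin1 and fell by 56.0% with RapaLink-1 (log2 fold changes -0.51, -1.16 and -1.18, each ± 0.02, edgeR adjusted p = 2.49e-71, 1.3e-123 and 1.34e-124). Ran shares 14.1% of its stretches with the copy Gm13461, listed at 1.81 CPM with DMSO.

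Xpo1, the exportin for leucine-rich export signals (CRM1), fell by 0.33, 0.79 and 0.66 on the log2 scale with rapamycin, Torin1 and RapaLink-1. Tnpo1, transportin 1, which imports several RNA-binding proteins, fell by 0.39, 0.70 and 0.58. Both were higher with RapaLink-1 than with Torin1, Xpo1 by 0.12 ± 0.02 (adjusted p = 2.73e-09) and Tnpo1 by 0.13 ± 0.02 (adjusted p = 3.3e-09). Xpo1 stood at 253 to 259 CPM with Torin1 and 277 to 284 with RapaLink-1, and Tnpo1 at 238 to 249 and 265 to 267, so the libraries of these groups did not overlap for either gene.

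Both remaining importins had another pattern. Ipo7, an importin beta family receptor known to bring ribosomal proteins and histone H1 into the nucleus, fell with rapamycin and was not called against DMSO with the other compounds. It stood at 259.7, 264 and 262 CPM with DMSO, 179.8, 197 and 188 with rapamycin, 257, 256 and 255 with Torin1, and 256, 258 and 266 with RapaLink-1. The rapamycin libraries were lower than all 9 others, which spanned 255 to 266 CPM. The change against DMSO was -0.48 ± 0.02 with rapamycin (adjusted p = 1.14e-49), while Torin1 (-0.03 ± 0.02, adjusted p = 0.111) and RapaLink-1 (-0.01 ± 0.02, adjusted p = 0.679) were not called. Against rapamycin, Ipo7 was higher by 0.44 ± 0.02 with Torin1 (adjusted p = 1.8e-46) and by 0.47 ± 0.02 with RapaLink-1 (adjusted p = 6.27e-49). Being lower with rapamycin and higher with Torin1 than with rapamycin was called for 6.90% of all tested genes, and the like pattern with RapaLink-1 for 6.72%. The differences from rapamycin were called with the same sign under all alternatives run, but the sign against DMSO with Torin1 and RapaLink-1 was not fixed. With DESeq2 size factors Ipo7 was called 0.05 lower with Torin1 (edgeR adjusted p = 0.0193). With upper-quartile scaling Ipo7 was 0.09 higher with Torin1 and 0.13 higher with RapaLink-1, and when genes with a mean under 5 CPM were left out it was 0.06 and 0.08 higher.

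Ipo5, an importin for ribosomal proteins and core histones, fell to a like level with each compound. Its range was 738 to 754 CPM in DMSO libraries, 538 to 545 in rapamycin libraries, 551 to 562 in Torin1 libraries and 565 to 568 in RapaLink-1 libraries. All treated libraries were below the DMSO range, and the log2 fold changes were -0.46, -0.42 and -0.40 (each ± 0.02). It was called higher with Torin1 than with rapamycin by 0.04 ± 0.02 (adjusted p = 0.0179), and by 0.06 ± 0.02 with RapaLink-1 (adjusted p = 0.000165). The call between Torin1 and rapamycin was lost with DESeq2 (adjusted p = 0.0537) and when any Torin1 library or rapamycin replicate 3 was left out (0.01 to 0.03). In edgeR it was also lost with DESeq2 size factors (adjusted p = 0.0571), no filter on low counts (0.096) or only the compared libraries (0.0847).

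**Figure D3:**
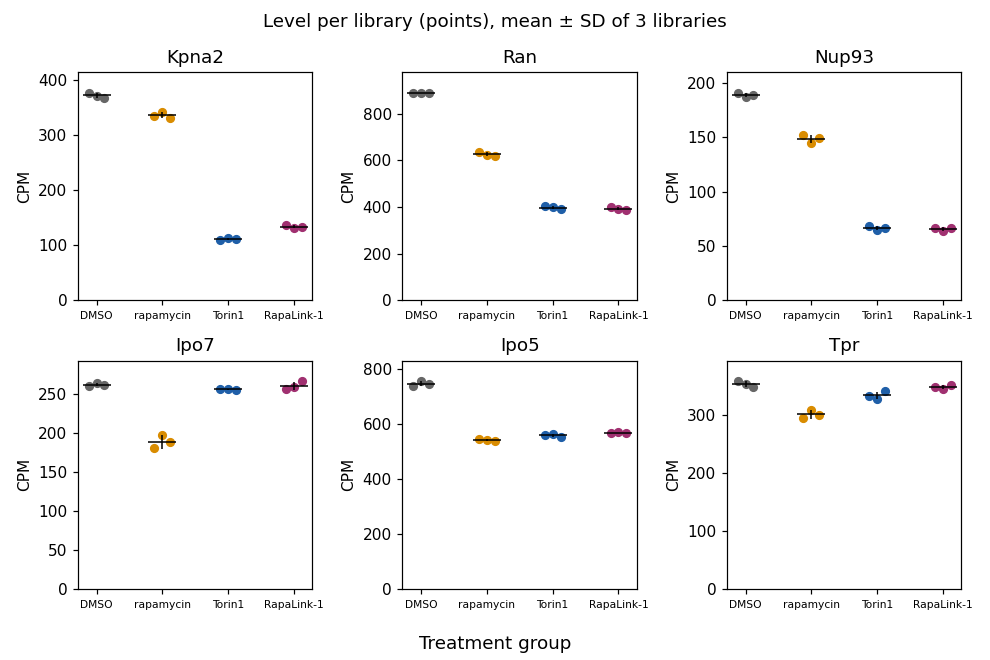
Level of 6 genes in each library (points, CPM, each axis from 0), with the mean (bar) and SD of 3 libraries per group. Kpna2, Ran and Nup93 step down from DMSO to Torin1 and RapaLink-1, Ipo7 and Tpr are lowest with rapamycin, and Ipo5 is at 538 to 568 CPM with all 3 compounds.

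Among the pore proteins, the Y complex forms the outer rings and helps to seed new pores after mitosis. All 9 of its listed genes were called lower with each compound. Of all tested genes, 32.2%, 38.3% and 37.9% were called lower with rapamycin, Torin1 and RapaLink-1. All listed genes of the inner ring, the channel and the cytoplasmic face were also called lower with each compound. The log2 fold changes of the Y complex ran from -0.59 to -0.29 with rapamycin, from -1.11 to -0.58 with Torin1 and from -1.07 to -0.52 with RapaLink-1. Nup107, a core subunit of the complex, held 155 to 157 CPM in DMSO libraries, 115 to 120.0 in rapamycin libraries, 72.3 to 73.2 in Torin1 libraries and 74.4 to 77.8 in RapaLink-1 libraries. No pair of these groups overlapped, but RapaLink-1 and Torin1 were not called different (0.06 ± 0.03, edgeR adjusted p = 0.112). Its partners Nup160, Nup85 and Nup43 were -1.09, -1.05 and -1.11 with Torin1, close to the -1.10 of Nup107. Sec13, which also coats transport vesicles of the endoplasmic reticulum, had the smallest change of the 9 with rapamycin, -0.29, and fell by 50.1% with Torin1. Seh1l and Ahctf1 changed less with Torin1, by -0.58 and -0.61. Seh1l is shared with the GATOR2 complex, which relays amino acid supply to mTOR complex 1, as is Sec13, and Ahctf1 encodes ELYS, which recruits the Y complex to chromatin. Nup37 was 33.1 to 35.1 CPM with Torin1 and at most 32.5 with RapaLink-1. It was the only one of the 35 called lower with RapaLink-1 than with Torin1 (-0.12 ± 0.04, adjusted p = 0.0103). DESeq2 did not make that call (adjusted p = 0.0519), and it was lost without RapaLink-1 replicate 2 (-0.09), RapaLink-1 replicate 3 (-0.11) or Torin1 replicate 1 (-0.09). Nup133 was -0.35, -0.77 and -0.80, with 10.4% of its exonic bases overlapping other genes.

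The inner ring, which lines the scaffold and anchors the channel nucleoporins, held the largest fall of any pore gene with Torin1 and RapaLink-1. Nup93, the subunit that links the ring's parts, lies on chromosome 8 at 94214564 to 94317227 of GRCm38, on the plus strand. It stood at 191, 187 and 189 CPM with DMSO, 152, 144 and 149.5 with rapamycin, 67.9, 64.8 and 66.7 with Torin1, and 66.5, 63.7 and 66.7 with RapaLink-1. Torin1 and RapaLink-1 overlapped and lay far below rapamycin. The log2 fold changes were -0.35 (adjusted p = 8.08e-34), -1.51 (adjusted p = 2.65e-112) and -1.53 (adjusted p = 7.84e-113), each ± 0.02. Nup205 and Nup35 fell by 1.05 and 1.07 with Torin1. Nup155 and Nup188 fell less, by 0.65 and 0.54. Nup188 had its largest step already with rapamycin (-0.35), and the further change from rapamycin to Torin1 was -0.19. For Nup35, 39.2% of the 50-base stretches are shared, mostly with Gm4353, listed at 2.75 CPM with DMSO and 1.38 with Torin1. For Nup188, 12.4% of the exonic bases overlap other genes.

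The 3 channel nucleoporins, which carry the phenylalanine-glycine repeats that receptors bind, were called lower with each compound. Of all tested genes, 32.2%, 38.3% and 37.9% were called lower with rapamycin, Torin1 and RapaLink-1. Nup62 fell by 0.32, 0.88 and 0.79 with rapamycin, Torin1 and RapaLink-1, and its partner Nup54 by 0.44, 0.56 and 0.57. For Nup54 most of the fall was thus present with rapamycin, with 56.5 to 60.3 CPM there and 51.8 to 55.2 with Torin1, from 77.4 to 81.9 with DMSO. Nup98, whose message also encodes the scaffold protein Nup96, fell by 0.32, 0.68 and 0.59. It was higher with RapaLink-1 than with Torin1 by 0.10 ± 0.03 (adjusted p = 0.0014).

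The cytoplasmic face changed least, with medians of -0.21, -0.31 and -0.33 over its 3 genes. Nup88, which anchors Nup214 on that face, stood at 139.6, 135.5 and 136 CPM with DMSO, 115, 112 and 113 with rapamycin, 115, 112 and 109 with Torin1, and 109, 109.9 and 108 with RapaLink-1. Rapamycin and Torin1 overlapped, and all treated libraries lay below DMSO. The changes were -0.27, -0.30 and -0.33 (each ± 0.02). Torin1 and rapamycin were not called different (-0.02 ± 0.02, adjusted p = 0.373), and the sign of that value was positive (0.04) with upper-quartile scaling. It was called lower without Torin1 replicate 1 (-0.07, adjusted p = 0.0254). RapaLink-1 against rapamycin was called at -0.06 ± 0.02 (adjusted p = 0.0242), which was lost without rapamycin replicate 1 (-0.05) and with DESeq2 (adjusted p = 0.0659). Rae1, an mRNA export factor that docks at the pore, fell by 0.18, 0.31 and 0.30. Nup214, a large filament nucleoporin that binds export complexes, fell by 0.21 with rapamycin and by 0.60 and 0.55 with Torin1 and RapaLink-1. So the small falls with the latter compounds were those of Nup88 and Rae1.

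The nuclear basket was split. Nup50, a mobile basket protein that speeds release of importin alpha cargo, fell by 0.41, 1.02 and 0.96, and Nup153, which anchors the basket, by 0.37, 0.72 and 0.70. Tpr, the coiled-coil protein that forms the basket filaments, is on chromosome 1 at 150392838 to 150449935 of GRCm38, on the plus strand. It stood at 358, 354 and 349 CPM with DMSO, 294, 309.5 and 299 with rapamycin, 333, 327 and 341 with Torin1, and 349, 345 and 352 with RapaLink-1. Rapamycin was lowest, Torin1 lay between it and DMSO, and RapaLink-1 overlapped DMSO. The change against DMSO was -0.23 ± 0.02 with rapamycin (adjusted p = 3.69e-26), -0.08 ± 0.02 with Torin1 (adjusted p = 9.45e-06) and -0.02 ± 0.02 with RapaLink-1 (adjusted p = 0.268). Tpr was higher than with rapamycin by 0.15 ± 0.02 with Torin1 (adjusted p = 9.09e-14) and by 0.21 ± 0.02 with RapaLink-1 (adjusted p = 5.28e-23), and these calls held under all alternatives run. Against DMSO its sign flipped with upper-quartile scaling (0.04 with Torin1 and 0.12 with RapaLink-1) and when genes with a mean under 5 CPM were left out (0.01 and 0.06).

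Of the pore membrane genes, Ndc1, a transmembrane nucleoporin needed to insert pores into the envelope, fell most. It stood at 167, 163 and 164.5 CPM with DMSO, 129, 127 and 127 with rapamycin, 67.6, 64.7 and 66.6 with Torin1, and 68.1, 69.1 and 72.0 with RapaLink-1. The DMSO, rapamycin and Torin1 groups were far apart, and RapaLink-1 lay just above Torin1. The log2 fold changes were -0.37, -1.31 and -1.24 (each ± 0.02). Aaas, which encodes ALADIN, a protein that Ndc1 holds at the pore, fell by 0.26, 0.91 and 0.80. Pom121, another transmembrane anchor of the pore, fell by 0.22, 0.58 and 0.53, and 11.9% of its exonic bases overlap other genes, among them the antisense gene Nsun5.

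Nup210, a transmembrane nucleoporin known from muscle and immune cells, was almost absent. It had 13, 9 and 14 counts in the DMSO libraries, 4, 5 and 9 with rapamycin, 13, 6 and 19 with Torin1, and 10, 7 and 10 with RapaLink-1. The Torin1 libraries spanned all of the DMSO range, and the largest rapamycin count equalled the smallest DMSO count, although the CPM of these 2 groups did not overlap. No comparison with DMSO was called, and the one with rapamycin gave -0.98 ± 0.45 (adjusted p = 0.0529). Torin1 against rapamycin was called at 1.10 ± 0.45 (adjusted p = 0.0224), a call that DESeq2 did not make (adjusted p = 0.0619). It was also lost without Torin1 replicate 1 (0.99), Torin1 replicate 3 (0.74), rapamycin replicate 1 (0.88) or rapamycin replicate 2 (1.07). The fall with rapamycin was called without DMSO replicate 2 (-1.10, adjusted p = 0.0475) or rapamycin replicate 3 (-1.30, adjusted p = 0.0388). At so few counts, small changes of Nup210 were not detectable.

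**Figure D4:**
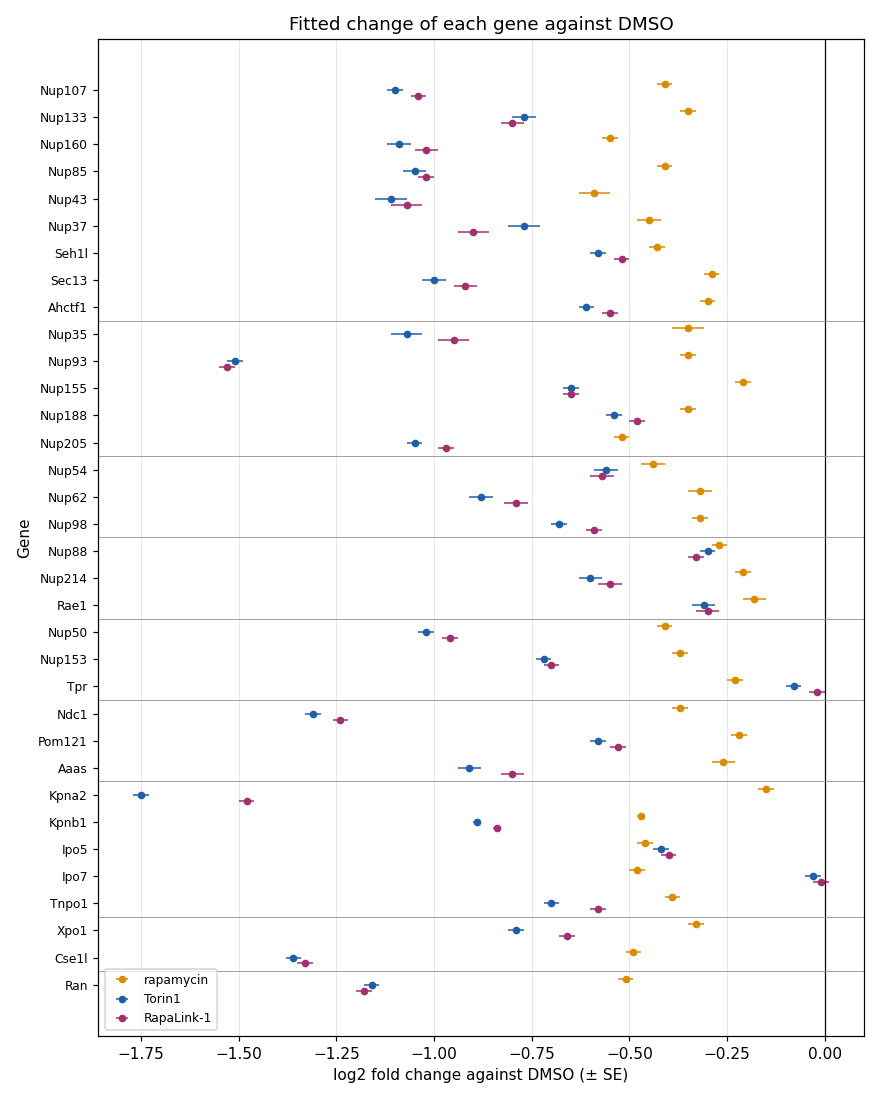
Fitted log2 fold change against DMSO (x axis) of 34 genes, ordered by role from the Y complex to Ran, with bars for ± SE, for rapamycin, Torin1 and RapaLink-1. Nup210 is left out because its standard errors of 0.38 to 0.45 are far wider than those of the other genes, and Ipo7 and Tpr are the genes whose Torin1 and RapaLink-1 points lie nearest to 0.

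The classes moved by like amounts. Averaged over its members on the log2 CPM scale, the nucleoporin class lay at -0.378 to -0.356 from its DMSO mean in the rapamycin libraries, at -0.807 to -0.749 for Torin1 and at -0.757 to -0.734 for RapaLink-1. The transport class lay at -0.421 to -0.388, -0.895 to -0.881 and -0.817 to -0.805 from its own DMSO mean. The nucleoporin mean minus the transport mean ranged from -2.279 to -2.235 in DMSO libraries, from -2.241 to -2.198 in rapamycin libraries, from -2.181 to -2.116 in Torin1 libraries and from -2.196 to -2.183 in RapaLink-1 libraries. With Nup210 included, DMSO and rapamycin overlapped narrowly in that difference (-2.241 with rapamycin, -2.235 with DMSO). The Torin1 and RapaLink-1 libraries lay above both, but the lowest RapaLink-1 value (-2.196) was only just above the highest rapamycin value (-2.198). No test was made of the nucleoporin minus transport difference. With RapaLink-1 against DMSO its direction depends on the summary, since by class medians the nucleoporins fell slightly more (-0.79) than the transport genes (-0.75). Nup210, with its few counts, enters the nucleoporin mean, and Kpna2 enters the mean of only 8 genes. In the rapamycin libraries Nup210 lay at -1.199, -0.837 and -0.448 from its DMSO mean, which lowers the nucleoporin mean there. The place of rapamycin relative to DMSO and to RapaLink-1 in the difference therefore depends on Nup210 and is not fixed.

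**Figure D5:**
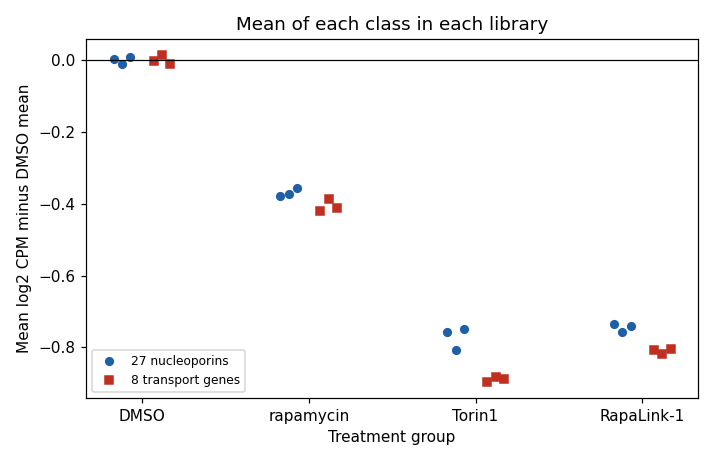
Mean log2 CPM of the 27 nucleoporins (circles) and the 8 transport genes (squares) in each of the 12 libraries, as the difference from the mean of the DMSO libraries of that class. Both classes step down from DMSO to rapamycin and further to Torin1 and RapaLink-1, and the squares lie below the circles in each treated group, although the class medians with RapaLink-1 stand in the opposite order (-0.79 for nucleoporins and -0.75 for transport genes).

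The other genes of the pathway, taken from fixed lists, mostly fell as well. Of all tested genes, 32.2%, 38.3% and 37.9% were called lower and 27.5%, 39.8% and 38.7% higher against DMSO, in the order rapamycin, Torin1, RapaLink-1. All 5 tested partners of the Ran cycle fell with each compound, with medians of -0.35, -1.16 and -1.03 for rapamycin, Torin1 and RapaLink-1. With Torin1 the Ran GTPase activator Rangap1 changed by -1.56, the exchange factor Rcc1 by -1.41 and Ranbp1, a cofactor of the activator, by -1.16. Of 20 other import and export receptors, 17 fell and 0 rose with rapamycin, 17 fell and 1 rose with Torin1, and 16 fell and 2 rose with RapaLink-1. Among these, the tRNA exportin Xpot and the importins Ipo9 and Kpna3 changed by -0.92, -0.69 and -0.63 with Torin1. Of the 7 other nucleoporins and pore helicase factors tested, 4, 6 and 6 fell and none rose. Nup58, a partner of Nup62, was -0.67 with Torin1, and the mRNA export factor Gle1 was -0.41. Of 19 mRNA export factors, 14, 15 and 15 fell and 1, 2 and 3 rose, with the adaptor Alyref at -1.33 and the helicase Ddx39a at -1.31 with Torin1. Of 18 genes of the lamina and envelope, 10, 13 and 14 fell and 2, 3 and 3 rose. Lmnb1, which encodes lamin B1, the lamin B receptor Lbr and the lamina-associated protein gene Tmpo were -1.41, -1.19 and -0.81 with Torin1. Sun2, which links the envelope to the cytoskeleton, went the other way at 0.83.

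The proliferation markers fell as well. All 11 were called lower with each compound, beside 32.2%, 38.3% and 37.9% of all tested genes with rapamycin, Torin1 and RapaLink-1. Their medians were -0.33, -1.51 and -1.27 in that order, and those of the 35 genes were -0.37, -0.77 and -0.79. Mcm5, a subunit of the replicative helicase, was -0.63, -1.79 and -1.70. Between the kinase-site compounds, 10 of the 11 were higher with RapaLink-1 than with Torin1. In that comparison 16.7% of all tested genes were called higher and 16.4% lower. Of the 35 pore and transport genes 15 were higher, 1 was lower and 19 were not called in that comparison, Ran, Cse1l and Ipo7 among the last. Whether the pore and transport genes moved with the proliferation markers in the same cells was not tested.

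Promoter windows from RefSeq (GRCm38.p6) were available for 30 of the 35 genes, 35 windows in all, and the 250 bases before each start were searched on both strands. The windows of Nup85, Nup43, Seh1l, Nup35 and Cse1l were not used here. Shown are the gene with the largest fall with Torin1 (Kpna2) and the most abundant gene per length (Ran). Ipo7 and Tpr are shown from the genes lowest with rapamycin, which also include Ipo5 and Nup210. The windows run 5′ to 3′ on the gene's strand and end before the gene's bounds in the count tables. Capitals mark the searched motifs or their reverse complements. The E-box was searched as CACGTG and the CCAAT box by the letters of its name. The core of the cell cycle homology region was searched as TTTGAA and, in its other known form, TTCGAA. The E2F motif was searched as TTTGGCGC or TTTCCCGC. The NRF1 motif was GCGCATGCGC, and the ETS motif was CCGGAAG. The ATF4 motif was TGATGNAA. None of these motifs holds another.
Kpna2 (chr11:106999542-106999775, minus strand): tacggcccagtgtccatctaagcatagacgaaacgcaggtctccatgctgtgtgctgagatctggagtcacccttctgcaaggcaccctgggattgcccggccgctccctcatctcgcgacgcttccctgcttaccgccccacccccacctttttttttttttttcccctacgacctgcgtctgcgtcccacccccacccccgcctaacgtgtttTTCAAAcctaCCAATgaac
Ran (chr5:129019906-129020068, plus strand): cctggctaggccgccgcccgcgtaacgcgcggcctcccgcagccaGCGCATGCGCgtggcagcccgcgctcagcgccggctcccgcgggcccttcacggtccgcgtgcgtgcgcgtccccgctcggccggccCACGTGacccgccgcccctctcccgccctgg
Ipo7 (chr7:110018065-110018273, plus strand): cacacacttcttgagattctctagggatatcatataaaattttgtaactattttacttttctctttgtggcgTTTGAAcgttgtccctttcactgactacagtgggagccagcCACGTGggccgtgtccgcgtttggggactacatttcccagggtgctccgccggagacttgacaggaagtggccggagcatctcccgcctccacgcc
Tpr (chr1:150392588-150392837, plus strand): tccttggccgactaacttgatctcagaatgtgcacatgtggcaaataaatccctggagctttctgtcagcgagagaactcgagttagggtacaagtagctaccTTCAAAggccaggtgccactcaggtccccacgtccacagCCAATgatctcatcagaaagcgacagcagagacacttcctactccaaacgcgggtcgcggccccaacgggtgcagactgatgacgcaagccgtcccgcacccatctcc
A match is a description of letters and not a binding site.

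The Kpna2 window held a CCAAT box and the cell cycle core side by side, 25 to 21 and 35 to 30 bases before the start. Positions are counted from the RefSeq start, which for Kpna2 lies past the end of the stretch shown. The Tpr window held the same pair of motifs further apart, 108 to 104 and 147 to 142 bases before the start. Whether these letters relate to the fold changes was not tested. The Ran window held an E-box and an NRF1 match, and the Ipo7 window held an E-box and the cell cycle core. Among the 35 windows of the set, 14.3% held an E-box (in Nup188, Nup54, Ran, Ipo7 and Nup93), 42.9% a CCAAT box, 25.7% the cell cycle core, 20.0% the ETS letters, 11.4% the NRF1 letters (in Ran, Nup62, Nup107 and Nup50), 2.9% the E2F letters (in Nup210) and 0.0% the ATF4 letters. The shares over all 32851 windows were 6.0%, 33.8%, 17.1%, 6.9%, 0.8%, 1.3% and 3.5% in the same order. Over the 13981 windows of tested genes they were 8.1%, 34.9%, 12.1%, 12.8%, 1.5%, 2.3% and 2.0%.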

How the data were processed

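Total RNA of 12 libraries was sequenced after preparation with the NEBNext Ultra RNA kit, per the labels' protocols. The authors deposited 1 table of whole-number read counts per gene and library, made with featureCounts per the file headers, and these counts were used as deposited. The submitters' processing notes name Trimmomatic 0.36, STAR 2.5.2b, Subread 1.5.2 and DESeq2, with GRCm38 as the build. Strand setting, handling of multi-mapping reads and annotation release were not given in the sources used here. Overlapping genes and close copies are therefore marked as uncertain. GENCODE M21 gave symbols for 48970 of 49315 genes.

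Genes were filtered with filterByExpr by group, scaled with TMM and fitted in edgeR 4.0.16 (R 4.3.3) with a robust quasi-likelihood model of the 4 groups over all 12 libraries. Contrasts were two-sided, with Benjamini-Hochberg adjustment over 15917 tested genes. SE is the log2 fold change over the square root of F, CPM uses TMM-scaled totals, and log2 CPM used a prior count of 2. An exact permutation test of 3 libraries against 3 has a smallest p of 0.1. Replicates differed by a chi-square of 1.33 to 1.99 per degree of freedom, so no library appeared to be duplicated. Checked on simulated counts for Torin1 against DMSO (15115 genes, 50 changed at each fold), the test recovered 35, 40, 42 and 49 at folds of 1.2, 1.5, 2 and 4 and called 8 unchanged genes. Only 200 genes were changed there, far fewer than were called in the real comparison, so the simulation could not check the scaling.

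The members and lists were chosen with earlier results of these data known. Per-library values were given for the 2 largest falls and the highest value of each class with Torin1 and for any gene not called against DMSO, and others were added after their values were seen. Of each other list, up to 3 genes with the smallest p with Torin1 were named, plus any gene going against its list by at least 0.5. Alternatives were other scalings and filters, fits on the compared groups only, a replicate block, DESeq2 1.42.0 and leaving out each library.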

Additional observations from a re-analysis of the deposited data

How the results depend on the processing

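Of 2475 member values recomputed under an alternative, 2403 kept their direction and side of the threshold, 51 lost a call, 6 gained one and 15 changed direction, 3 of them for called genes. Upper-quartile scaling moved the median of all genes from 0.00, 0.04 and 0.03 to 0.07, 0.16 and 0.16 (rapamycin, Torin1 and RapaLink-1 against DMSO). It moved the share of calls that were higher from 46.1% to 57.4% for rapamycin against DMSO, from 51.0% to 60.4% for Torin1 against DMSO and from 50.5% to 61.3% for RapaLink-1 against DMSO. The share moved from 50.8% to 58.6% for Torin1 against rapamycin, from 49.2% to 59.4% for RapaLink-1 against rapamycin and from 50.4% to 55.4% for RapaLink-1 against Torin1. The signs that changed were those of Tpr against DMSO (upper quartile 0.043 with Torin1 and 0.116 with RapaLink-1, filter at 5 CPM 0.008 and 0.064), Ipo7 against DMSO (0.094 and 0.129, then 0.059 and 0.077, and 0.002 for RapaLink-1 with only the compared libraries) and Nup88 against rapamycin (upper quartile 0.039 with Torin1 and 0.015 with RapaLink-1, filter at 5 CPM 0.009 with Torin1). Leaving out 1 library gave -0.225 to 0.466 for Nup210 with Torin1 against DMSO and -0.028 to 0.001 for Ipo7 with RapaLink-1 against DMSO. The cause of these changes was not tested, other than that scaling shifts all genes alike.

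For the nucleoporin and transport medians, upper-quartile scaling gave -0.283 and -0.40 for rapamycin against DMSO, -0.641 and -0.71 for Torin1 against DMSO, -0.655 and -0.613 for RapaLink-1 against DMSO, -0.359 and -0.376 for Torin1 against rapamycin, -0.369 and -0.278 for RapaLink-1 against rapamycin, and 0.067 for nucleoporins with RapaLink-1 against Torin1. A filter at 5 CPM gave -0.288 and -0.405, -0.678 and -0.745, -0.708 and -0.665, -0.398 and -0.406, and -0.419 and -0.326 for the first 5 of these. No filter gave -0.357 for nucleoporins with rapamycin, -0.784 and -0.854 with Torin1 and -0.808 and -0.766 with RapaLink-1, all against DMSO. DESeq2 size factors and the DESeq2 test each gave -0.783 and -0.853 for Torin1 against DMSO and 0.066 for nucleoporins with RapaLink-1 against Torin1, and the DESeq2 test gave -0.355 for nucleoporins with rapamycin. With only the compared libraries the values were -0.322 and -0.44 for rapamycin against DMSO, -0.782 for nucleoporins with RapaLink-1 against DMSO and -0.437 with Torin1 against rapamycin.

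Genes called higher numbered 2 (upper quartile) and 1 (5 CPM) for Torin1 against DMSO, 2 and 2 for RapaLink-1 against DMSO, and 2 for Torin1 against rapamycin with the compared libraries or DESeq2, which called 0 lower for RapaLink-1 against Torin1. Leaving out 1 library gave 2 to 3 genes higher for Torin1 against rapamycin and 0 to 1 lower for RapaLink-1 against Torin1. Ipo5 lost its call for Torin1 against rapamycin under several of these. Nucleoporin medians against DMSO then ranged from -0.36 to -0.35 (rapamycin), from -0.778 to -0.756 (Torin1) and from -0.797 to -0.761 (RapaLink-1). Against rapamycin they ranged from -0.445 to -0.418 (Torin1) and from -0.463 to -0.44 (RapaLink-1). Between RapaLink-1 and Torin1 they ranged from 0.044 to 0.068. Transport medians were -0.465 to -0.435 and -0.372 to -0.348 against rapamycin. The nucleoporin minus the transport median against DMSO ranged from 0.096 to 0.114 (rapamycin), from 0.058 to 0.094 (Torin1) and from -0.055 to -0.005 (RapaLink-1), and from -0.007 to 0.02 for RapaLink-1 against Torin1.

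No pairing by replicate number was seen. Same-numbered libraries of different groups correlated between -0.039 and 0.059 in their deviations from the group means, and libraries with other numbers between -0.048 and 0.041. These values cannot show whether same-numbered samples were handled together. With a replicate block Nup210 was called lower with rapamycin (-0.997, edgeR adjusted p = 0.0479), and no other member's call changed. The low counts of Nup210 limit what can be said of it.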
